A study of Mus musculus with 18 samples.

Results

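Chemokines are small secreted proteins that draw leukocytes towards the cells that make them, and each binds one or several G protein-coupled receptors on the responding leukocyte. In visceral fat, macrophages, fibroblast-like progenitors, mesothelium and adipocytes make CC and CXC ligands, and the resident and recruited monocytes, eosinophils and lymphocytes carry the receptors. Atypical receptors bind the same ligands without G protein signalling and remove or transport them. The genes examined here were all single-symbol probe sets on the array whose platform symbol begins with Ccl, Cxcl, Cx3cl, Xcl, Ccr, Cxcr, Cx3cr, Xcr or Ackr followed by a number. This gave 56 genes from 61 probe sets, of 19938 genes in all: 34 ligands and 22 receptors. Ccl19 and Ccl25 had more than 1 probe set, and the one brightest on average over the 18 arrays stands for the gene. A further 7 probe sets that carry several symbols, among them near-identical copies of Ccl21 and Ccl27, were not used.

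Visceral fat (white adipose tissue, WAT) of male wildtype C57BL/6N mice aged 5 to 6 months was hybridised to Affymetrix Mouse Gene 1.0 ST arrays, with 1 array for each of 18 mice. STZ, BEZ mice (n = 5) received streptozotocin and then bezafibrate in the chow, STZ, SD mice (n = 6) received streptozotocin and standard diet, and Con, SD mice (n = 7) received citrate buffer and standard diet. Streptozotocin is a toxin that destroys the insulin-producing beta cells, and bezafibrate is a fibrate that activates peroxisome proliferator-activated receptors. Per the labels, streptozotocin was given at 65 mg/kg on 5 days to mice of 10 to 16 weeks, and bezafibrate was fed for 8 weeks from 2 weeks later at 0.25 or 0.5% of the chow by weight, with no statement of which mouse received which amount. The study's methods give a lower streptozotocin dose, only the higher amount of bezafibrate and untreated controls. The diabetes of both STZ groups was induced by a chemical, an immune part in it was not examined here, and STZ, BEZ mice carry the same injection as STZ, SD mice. A piece of fat holds many cell types, so that fewer cells of a type and less RNA per cell cannot be told apart. All values are log2 signals as the authors normalised them, so that a difference of 1 is a 2-fold change. The level of a gene is compared between mice, and is set against other genes only to say that it is bright or dim.

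The adipocyte markers were bright on every array, with a mean over 14 adipocyte genes (Adipoq, Plin1, Fabp4 and others) of 12.53 to 12.63 in STZ, BEZ, 10.50 to 12.57 in STZ, SD and 11.79 to 12.51 in Con, SD. Several arrays also carried genes of neighbouring tissue. The mean of 18 pancreatic enzyme genes was 6.09 to 11.48 in STZ, BEZ and 13.35 on the array of STZ, SD replicate 6, against 6.06 to 6.31 in Con, SD, and the mean of 9 epididymis genes was close to 12 on STZ, SD replicate 3 and on Con, SD replicates 3 and 5 (12.02, 11.94 and 12.01). The epididymis mean was 5.52 to 6.02 in STZ, BEZ and 6.45 to 12.01 in Con, SD, which did not overlap, and the STZ, SD mice overlapped with both. The mean of 10 liver genes was 6.39 to 9.51 in STZ, BEZ (highest on replicate 5), 5.85 to 6.44 in STZ, SD and 6.40 to 8.27 in Con, SD, and 2 of the 10, Alb and Apoa2, were called lower in STZ, SD compared with Con, SD (Alb by -2.22, SE 0.49, adjusted p = 0.0170). On STZ, SD replicate 6 all 11 B cell genes and 11 of 14 T and NK cell genes had their highest value of the 18 arrays. That mouse had the lowest adipocyte mean (10.50) and stands apart from the other arrays, and values without it are given for the members called in STZ, SD compared with Con, SD, for the calls that it changed and for a number of other members. The parts of the pancreas, epididymis, liver and lymphoid signals in the results below were not tested beyond that.

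The median SD within groups was 0.30 over the 56 members, between 0.09 and 0.89, and 0.21 over all 19938 genes. The widest spreads were those of Ccl28, Cxcl13, Ccr7 and Ccl5 (within-group SD of 0.89, 0.88, 0.77 and 0.71). A group mean above 7.19, the median of all values of the 19938 genes, was reached by 27 members, and all group means of the other 29 lay at or below it. All 5 neutrophil ligands belonged to the 29, and so did all CC receptors but Ccr2 and Ccr7. The deposited values carry no call of detection, and whether a dim member was expressed was not determined.

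**Figure D1:**
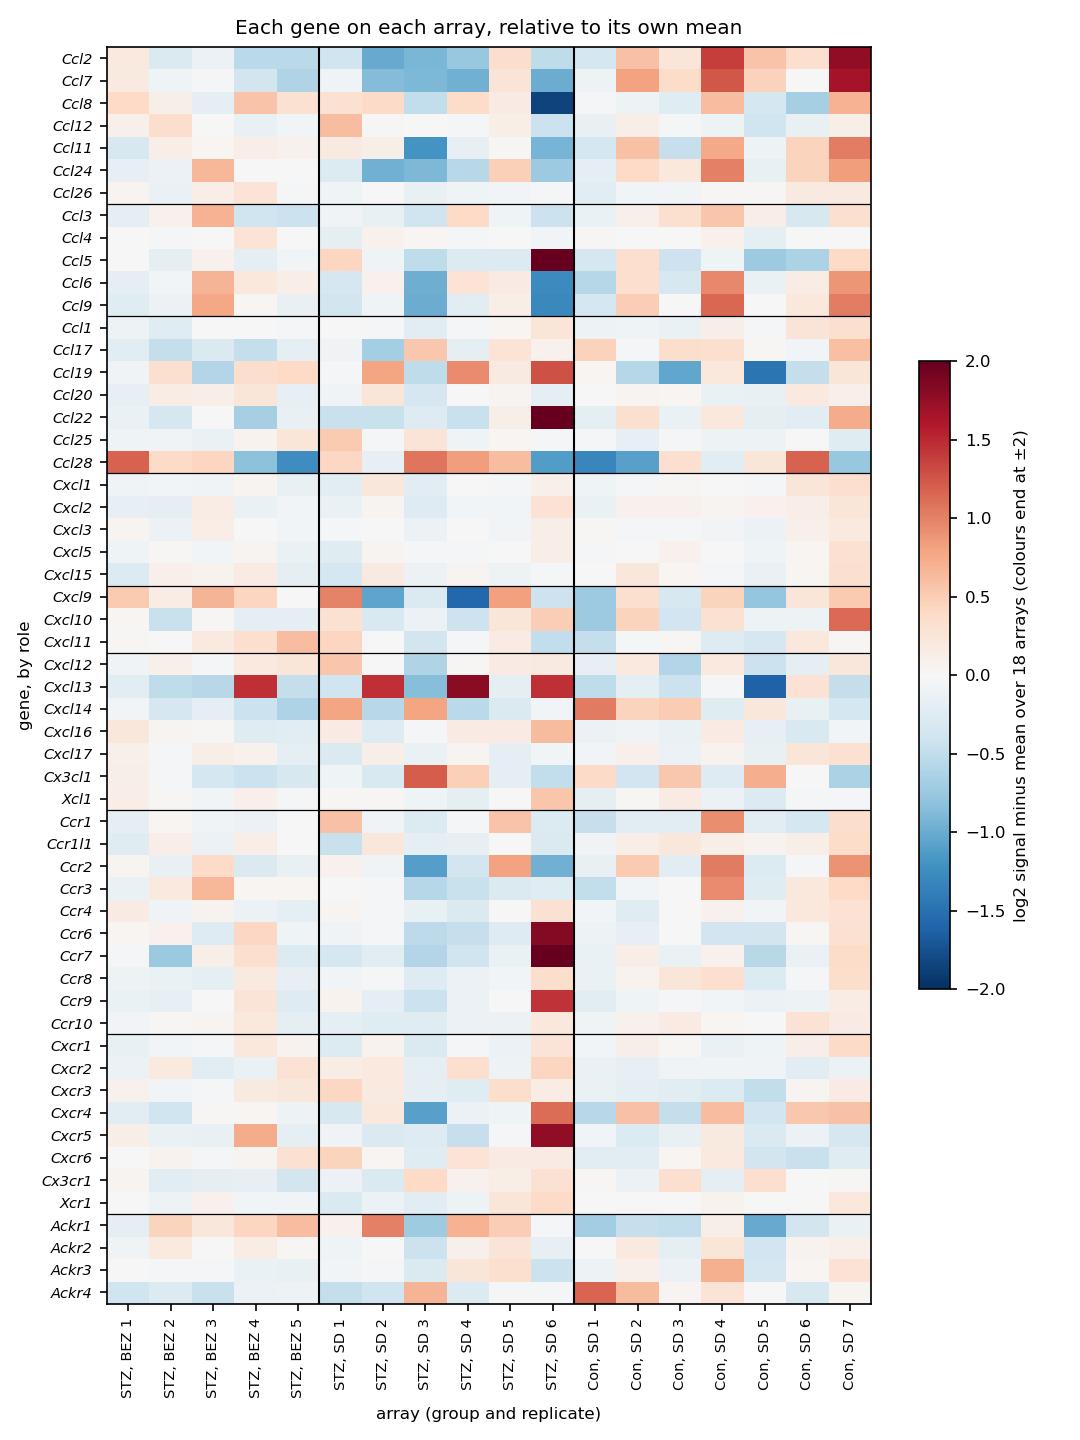
Heat map of the 56 chemokine and receptor genes (rows, grouped by role) on the 18 arrays (columns: STZ, BEZ, then STZ, SD, then Con, SD). Colour gives the log2 signal minus the mean of that gene over all arrays, with the scale ending at 2 in either direction. Ccl2, Ccl7, Ccl24 and Ccl9 are blue on most STZ, SD arrays and red on Con, SD replicates 4 and 7, and a block of lymphocyte genes (Ccl5, Ccl22, Ccr6, Ccr7, Ccr9, Cxcr5) is reddest on STZ, SD replicate 6.

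Many of the members lie in gene clusters that arose by duplication, while chromosomes 4, 6, 7, 17 and X hold 1 member each. In the RefSeq annotation, 14 lie on chromosome 11, 13 on chromosome 9 and 11 on chromosome 5. Ccl2, Ccl7, Ccl11, Ccl12, Ccl8 and Ccl1 follow each other on chromosome 11, a second run there holds Ccl5, Ccl9, Ccl6, Ccl3 and Ccl4, and Ccl24 lies beside Ccl26 on chromosome 5. Upstream sequence (250 bases before the start, RefSeq, GRCm38.p6) was at hand for 42 of the 56 members. Of the 6 members called in a comparison below, Ccl9, Ackr1 and Ccl17 had such a window, and these are shown because they differ between the groups in opposite directions or in different comparisons. Capitals mark every match, on either strand, to the NF-kB consensus, the AP-1 motif TGANTCA, the TATA box TATAAA, the interferon-gamma activation site TTCNNNGAA, the interferon response element (by its consensus) and the Sp1 box GGGCGG.
Ccl9 (chr11:83578637-83578886, minus strand): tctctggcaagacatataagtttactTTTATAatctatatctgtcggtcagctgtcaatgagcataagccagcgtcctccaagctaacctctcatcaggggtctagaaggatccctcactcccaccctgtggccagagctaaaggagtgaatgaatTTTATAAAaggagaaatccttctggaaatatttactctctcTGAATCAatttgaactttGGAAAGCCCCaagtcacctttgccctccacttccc
Ackr1 (chr1:173333504-173333753, minus strand): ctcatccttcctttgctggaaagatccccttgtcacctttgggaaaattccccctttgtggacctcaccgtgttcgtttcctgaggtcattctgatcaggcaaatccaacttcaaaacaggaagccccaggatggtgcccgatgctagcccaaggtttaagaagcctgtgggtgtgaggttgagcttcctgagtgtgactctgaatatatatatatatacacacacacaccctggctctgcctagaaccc
Ccl17 (chr8:94810203-94810452, plus strand): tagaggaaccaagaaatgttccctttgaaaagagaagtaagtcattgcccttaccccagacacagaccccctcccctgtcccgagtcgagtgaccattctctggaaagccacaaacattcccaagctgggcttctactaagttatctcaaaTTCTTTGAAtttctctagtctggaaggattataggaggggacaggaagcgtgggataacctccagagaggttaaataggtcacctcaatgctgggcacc

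The Ccl9 window held an NF-kB match, an AP-1 match and 3 TATA box matches, a pair of which overlap. The Ccl17 window held 1 interferon-gamma activation site and the Ackr1 window none of the 6 motifs. Over the 42 members with a window, 11 (26.2%) held an NF-kB match, against 8.23% of 27025 genes, and 14 (33.3%) a TATA box, against 14.3% of those genes. The Sp1 box was in 7 of the 42 (16.7%), against 35.4%. The AP-1 motif was in 9.52% of the members and 7.82% of all genes, the interferon-gamma activation site in 9.52% and 8.13%, and the interferon response element in 7.14% and 3.46%. Of the 11 members with an NF-kB match (Ackr2, Ccl1, Ccl20, Ccl9, Ccr1, Ccr3, Ccr6, Cxcl1, Cxcl10, Cxcl2 and Cxcl3), Ccl9 was the only one called in a comparison. A match is a stretch of letters and shows no binding.

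In order to see which chemokine genes differed in the diabetic fat, STZ, SD was compared with Con, SD. The monocyte chemoattractants Ccl2 and Ccl7 were more than 2-fold lower in STZ, SD, the eosinophil chemoattractant Ccl24 and the macrophage chemokine Ccl9 were 1.81-fold and 1.78-fold lower, and Ackr1, an atypical receptor of venules and red cells, was 1.61-fold higher. These 5 of 56 members (8.93%) passed an adjusted p under 0.10 in limma's fit over all genes, where 10.3% of all genes did, so that the share of members called was close to that of the genome. The lower calls numbered 4 members of 56, against 4.52% of all genes, and the higher call 1, against 5.82%. No member had groups that did not overlap, against 1.62% of all genes. At an unadjusted p under 0.05 there were 14 members (25%), 7 higher and 7 lower, against 20.3% of all genes. The median difference was -0.06 over the members and -0.03 over all genes, with 22 members above and 34 below 0. Without STZ, SD replicate 6 it was -0.10 over the members, with 17 above and 39 below 0.

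Of the 7 ligands grouped here as those of monocytes and eosinophils, 3 were called lower, against 4.52% of all genes. The median difference of the 7 was -0.60. Whether calls gather in this group was not tested. Ccl2, the main ligand of the monocyte receptor Ccr2, had log2 signals of 7.12 to 8.48 in STZ, SD (median 7.50), against 7.78 to 9.91 in Con, SD (median 8.70). All but 1 of the STZ, SD mice lay below every Con, SD mouse, and the exception, replicate 5, lay among them. The difference was -1.19 (SE 0.29, 2.28-fold lower, adjusted p = 0.0263, limma). Without STZ, SD replicate 6 it was -1.20 (adjusted p = 0.0290).

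Ccl7, its neighbour on chromosome 11 and a second ligand of Ccr2, had 7.07 to 8.31 in STZ, SD (median 7.18), against 7.95 to 9.72 in Con, SD (median 8.52). The signals of 4 STZ, SD mice lay below all Con, SD mice, while replicates 1 and 5 overlapped with the controls. The difference was -1.22 (SE 0.28, 2.33-fold lower, adjusted p = 0.0197, limma) and -1.14 without STZ, SD replicate 6 (adjusted p = 0.0270). Both Ccl2 and Ccl7 stayed under the threshold whichever of the 18 arrays was left out, with the highest adjusted p of 0.0720 and 0.0543 without STZ, SD replicate 2. Among the controls, replicates 7 and 4 had the highest values of both genes and replicate 1 the lowest.

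Ccl24 (eotaxin-2), which attracts eosinophils through Ccr3, had 6.47 to 7.91 in STZ, SD (median 6.80), against 7.24 to 8.44 in Con, SD (median 7.83). As for Ccl2, replicate 5 was the only STZ, SD mouse within the range of the controls. The difference of Ccl24 was -0.85 (SE 0.24, 1.81-fold lower, adjusted p = 0.0455, limma). It was -0.81 when STZ, SD replicate 6 was left out (adjusted p = 0.0607). Leaving out STZ, SD replicate 2 ended the call, at -0.76 (adjusted p = 0.112). Ccl11 (eotaxin-1), a further ligand of Ccr3, had 8.84 to 10.21 in STZ, SD (median 9.97), against 9.57 to 11.06 in Con, SD (median 10.48), a difference of -0.60 (SE 0.27) that did not pass (adjusted p = 0.211). The STZ, SD values of Ccl11 were low on replicates 3 and 6 and within the range of the controls on the other 4. Ccl8, a ligand from the same chromosomal run, differed by -0.18 (SE 0.32, adjusted p = 0.814), with 6.11 to 8.34 in STZ, SD (median 8.20) and 7.29 to 8.66 in Con, SD (median 7.86). Its lowest value was that of STZ, SD replicate 6, and without that array the difference was 0.16 (adjusted p = 0.711). Ccl12 and Ccl26, of the same group of 7, differed by 0.13 and -0.08, and neither passed.

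Ccl9 is made by macrophages and dendritic cells and binds Ccr1. It had 7.92 to 9.33 in STZ, SD (median 8.92), against 8.85 to 10.35 in Con, SD (median 9.41). All 6 STZ, SD mice were below the mean of the controls, and 3 of them below every control. The difference was -0.83 (SE 0.27, 1.78-fold lower, adjusted p = 0.0817, limma). This call was lost when any of 11 of the 18 arrays was left out, among them STZ, SD replicate 6 (difference -0.67, adjusted p = 0.130), and the highest adjusted p was 0.166, with Con, SD replicate 7 left out. The mean of 17 macrophage genes (Adgre1, Cd68, Csf1r and others) was also lowest on STZ, SD replicates 6 and 3 (8.29 and 8.47), the mice with the lowest Ccl9, and ranged up to 9.18 in STZ, SD, against 8.60 to 9.42 in Con, SD. None of these 17 macrophage genes was called in the comparison, at a median difference of -0.07. Ccl6, a close relative of Ccl9 beside it on the chromosome, had 9.02 to 10.57 in STZ, SD (median 10.18), against 9.72 to 11.25 in Con, SD (median 10.44), a difference of -0.52 (SE 0.29, adjusted p = 0.332), or -0.34 without STZ, SD replicate 6. The other 3 genes of this group, Ccl3, Ccl4 and Ccl5, differed by -0.26, -0.01 and 0.51, of which none passed.

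**Figure D2:**
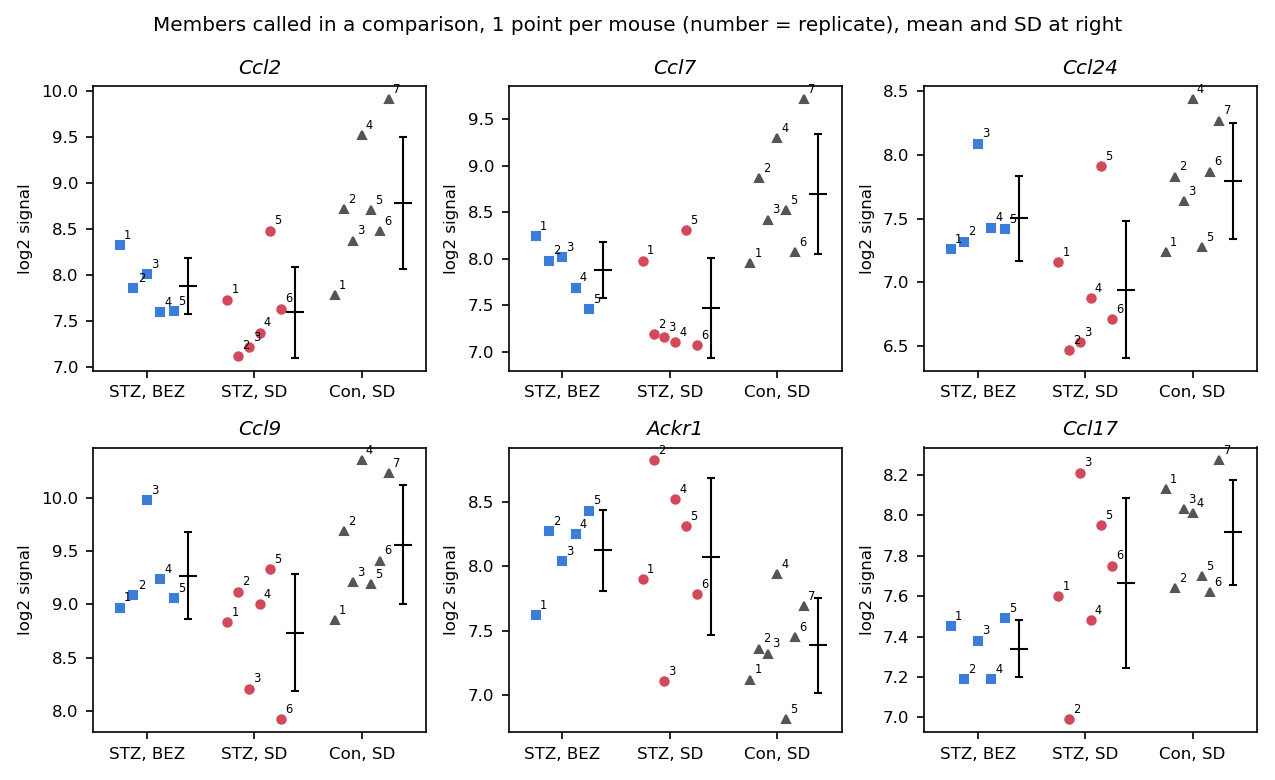
Log2 signal (vertical axis) of the 6 members called in a comparison, with 1 point per mouse numbered by replicate and the mean with its SD at the right of each group, in the order STZ, BEZ (n = 5), STZ, SD (n = 6) and Con, SD (n = 7). For Ccl2 and Ccl24 all STZ, SD mice but replicate 5 lie below every control, for Ackr1 4 of 5 STZ, BEZ mice and STZ, SD replicates 2, 4 and 5 lie above every control, and all 5 STZ, BEZ mice lie below the controls for Ccl17.

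Ackr1 (the Duffy antigen) carries CC and CXC chemokines across venular endothelium. It had 7.11 to 8.82 in STZ, SD (median 8.11), against 6.81 to 7.94 in Con, SD (median 7.36). Replicates 2, 4 and 5 of STZ, SD lay above all controls, and replicate 3 lay below the control mean. The difference was 0.69 (SE 0.24, 1.61-fold higher, adjusted p = 0.0954, limma). The call lies close to the threshold: it was lost when any of 14 arrays was left out, with the highest adjusted p of 0.216 without STZ, SD replicate 2, and the lowest was 0.0158 without STZ, SD replicate 3, where the difference was 0.88. Without STZ, SD replicate 6 it was 0.75 (adjusted p = 0.0743). The mean of 12 endothelial genes (Pecam1, Cdh5 and others) was 8.65 to 9.94 in STZ, SD, lowest on replicate 3, and 8.90 to 9.94 in Con, SD, and none of them was called. The other atypical receptors, Ackr2, Ackr3 and Ackr4, differed by -0.06, -0.13 and -0.35, and none passed.

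The lymphoid chemokines had the largest positive differences, but none passed. Cxcl13, which draws B cells through Cxcr5, had 8.25 to 10.90 in STZ, SD (median 9.73), against 7.49 to 9.39 in Con, SD (median 8.68). The STZ, SD values split, with replicates 2, 4 and 6 at 10.56, 10.90 and 10.56 and the other 3 mice at 8.25 to 8.91. The difference was 0.96 (SE 0.46, adjusted p = 0.246). Ccl19, a ligand of Ccr7 on T cells and dendritic cells, had 8.51 to 10.30 in STZ, SD (median 9.51), against 7.56 to 9.26 in Con, SD (median 8.55), a difference of 0.88 (SE 0.32, adjusted p = 0.113). The same 3 mice had the highest Ccl19, all above the controls. The mean of 6 lymph node stroma and lymphatic genes was 6.70 to 8.31 in STZ, SD, against 6.49 to 7.15 in Con, SD, and was also highest on replicates 2, 4 and 6 (7.48, 7.71 and 8.31). Its part in these values was not tested. With STZ, SD replicate 6 left out, Cxcl13 and Ccl19 differed by 0.78 and 0.71 (adjusted p = 0.338 and 0.177). STZ, SD replicate 3 had the lowest value of both genes in its group, and with that mouse left out both passed (adjusted p = 0.0944 and 0.0396).

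A block of lymphocyte genes was high on 1 mouse. Ccr7, the homing receptor of naive T cells and mature dendritic cells, had 7.22 to 10.47 in STZ, SD (median 7.53), against 7.25 to 8.18 in Con, SD (median 7.68). Replicate 6 alone was at 10.47, and the next highest STZ, SD mouse, at 7.68, lay within the controls. The difference was 0.22 (SE 0.40, adjusted p = 0.814), and -0.28 without replicate 6 (adjusted p = 0.330), so that its direction rested on that mouse. Ccl5, made by T and NK cells, had 8.25 to 11.27 in STZ, SD (median 8.58), against 8.03 to 9.16 in Con, SD (median 8.40), with 11.27 again on replicate 6. Its difference was 0.51 (SE 0.37, adjusted p = 0.491), and 0.07 without that mouse. Ccl22, a ligand of Ccr4 made by dendritic cells, had 5.67 to 8.32 in STZ, SD (median 5.77), against 5.90 to 6.87 in Con, SD (median 5.99), and differed by 0.04 (SE 0.34, adjusted p = 0.967), and by -0.38 without replicate 6 (adjusted p = 0.177). The B cell receptor Cxcr5, and Ccr6 and Ccr9 of B and T cells, reached 6.84, 7.39 and 7.06 on replicate 6, while the other 17 arrays lay at or below 5.82, 5.97 and 5.87. In all, 14 of the 56 members (25%) had their highest value there, against 14.9% of all genes, and the mean of the 11 B cell genes was 8.69, against 5.60 to 7.09 on the other 17 arrays. Such a share was not particular to that array: Con, SD replicate 7 had the highest value of 15 members (26.8%), against 8.34% of all genes.

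**Figure D3:**
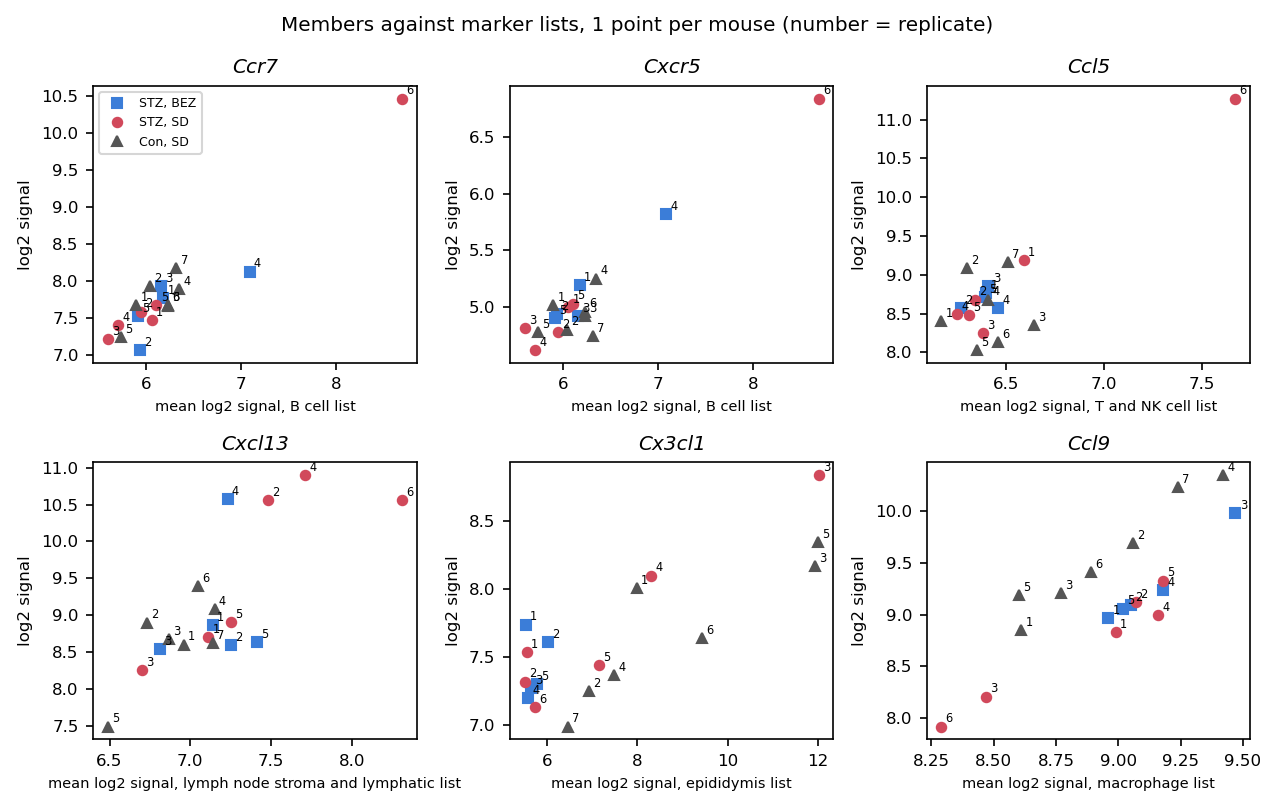
Log2 signal of 6 members (vertical axes) against the mean log2 signal of a marker list (horizontal axes), with 1 point per mouse numbered by replicate, for STZ, BEZ (squares), STZ, SD (circles) and Con, SD (triangles). STZ, SD replicate 6 is alone at the top right for Ccr7, Cxcr5 and Ccl5, STZ, SD replicates 2, 4 and 6 and STZ, BEZ replicate 4 lie above 10 for Cxcl13, and the 3 arrays with an epididymis mean close to 12 have the highest Cx3cl1.

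None of the 10 CC receptors and none of the 8 CXC, CX3C and XC receptors was called. An unadjusted p under 0.05 was reached by 2 of the 10 (20%) and 3 of the 8 (37.5%), against 20.3% of all genes. Ccr2, through which Ccl2 and Ccl7 act, had 6.72 to 8.63 in STZ, SD (median 7.61), against 7.55 to 8.86 in Con, SD (median 7.78), a difference of -0.53 (SE 0.29, adjusted p = 0.335). Replicate 5 of STZ, SD, which had the highest Ccl2 of its group, also had the highest Ccr2, and replicates 3, 4 and 6 lay below all controls. Ccr3, the eotaxin receptor, differed by -0.37 (SE 0.19, adjusted p = 0.294). Cxcr6, found on NK, NKT and memory T cells, had 6.25 to 6.94 in STZ, SD (median 6.67), against 6.06 to 6.69 in Con, SD (median 6.27), and its difference of 0.32 (SE 0.11) just missed the threshold (adjusted p = 0.104). Of the 14 T and NK cell genes, only Ncr1, an activating receptor of NK cells, was called (higher by 0.78, SE 0.16, adjusted p = 0.0146, limma). Nkg7, Klrb1c, Gzma and Prf1 of that list differed by 0.55, -0.61, 0.05 and 0.03, and none passed. The median over the 14 was 0.13. Cxcr3, Cxcr2 and Ccr1l1 differed by 0.27, 0.25 and -0.28, and none passed. Ccr10, a receptor of skin- and mucosa-homing lymphocytes, differed by -0.21 (SE 0.09, adjusted p = 0.171). It was called lower without STZ, SD replicate 6, at -0.27 (adjusted p = 0.0346), and also with array weights.

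The neutrophil ligands Cxcl1, Cxcl2, Cxcl3, Cxcl5 and Cxcl15 were dim and differed by -0.12 to -0.03, with no call among the 5. The interferon-induced ligands of Cxcr3 did not pass either. Cxcl9 ranged from 7.49 to 10.05 in STZ, SD (median 8.70), against 8.29 to 9.59 in Con, SD (median 9.30), with high values on STZ, SD replicates 1 and 5 and low ones on 4 and 2, and differed by -0.21 (SE 0.36, adjusted p = 0.796). Cxcl10 and Cxcl11 differed by -0.05 and 0.07. Ccl28, an epithelial chemokine, had overlapping wide ranges, 6.27 to 8.46 in STZ, SD (median 7.91) and 6.09 to 8.57 in Con, SD (median 7.17), a difference of 0.51 (SE 0.46, adjusted p = 0.597), or 0.79 without STZ, SD replicate 6 (adjusted p = 0.304). Cx3cl1 (fractalkine), a membrane-bound ligand, was highest on STZ, SD replicate 3 (8.84) and on Con, SD replicates 5 and 3 (8.35 and 8.17), the 3 arrays with high epididymis genes, and its receptor Cx3cr1 was highest on the same 3 (7.83, 7.76 and 7.77). The part of the epididymis in these values was not tested. Neither differed between the groups beyond its spread (0.05 and 0.03, adjusted p = 0.946 and 0.931).

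**Figure D4:**
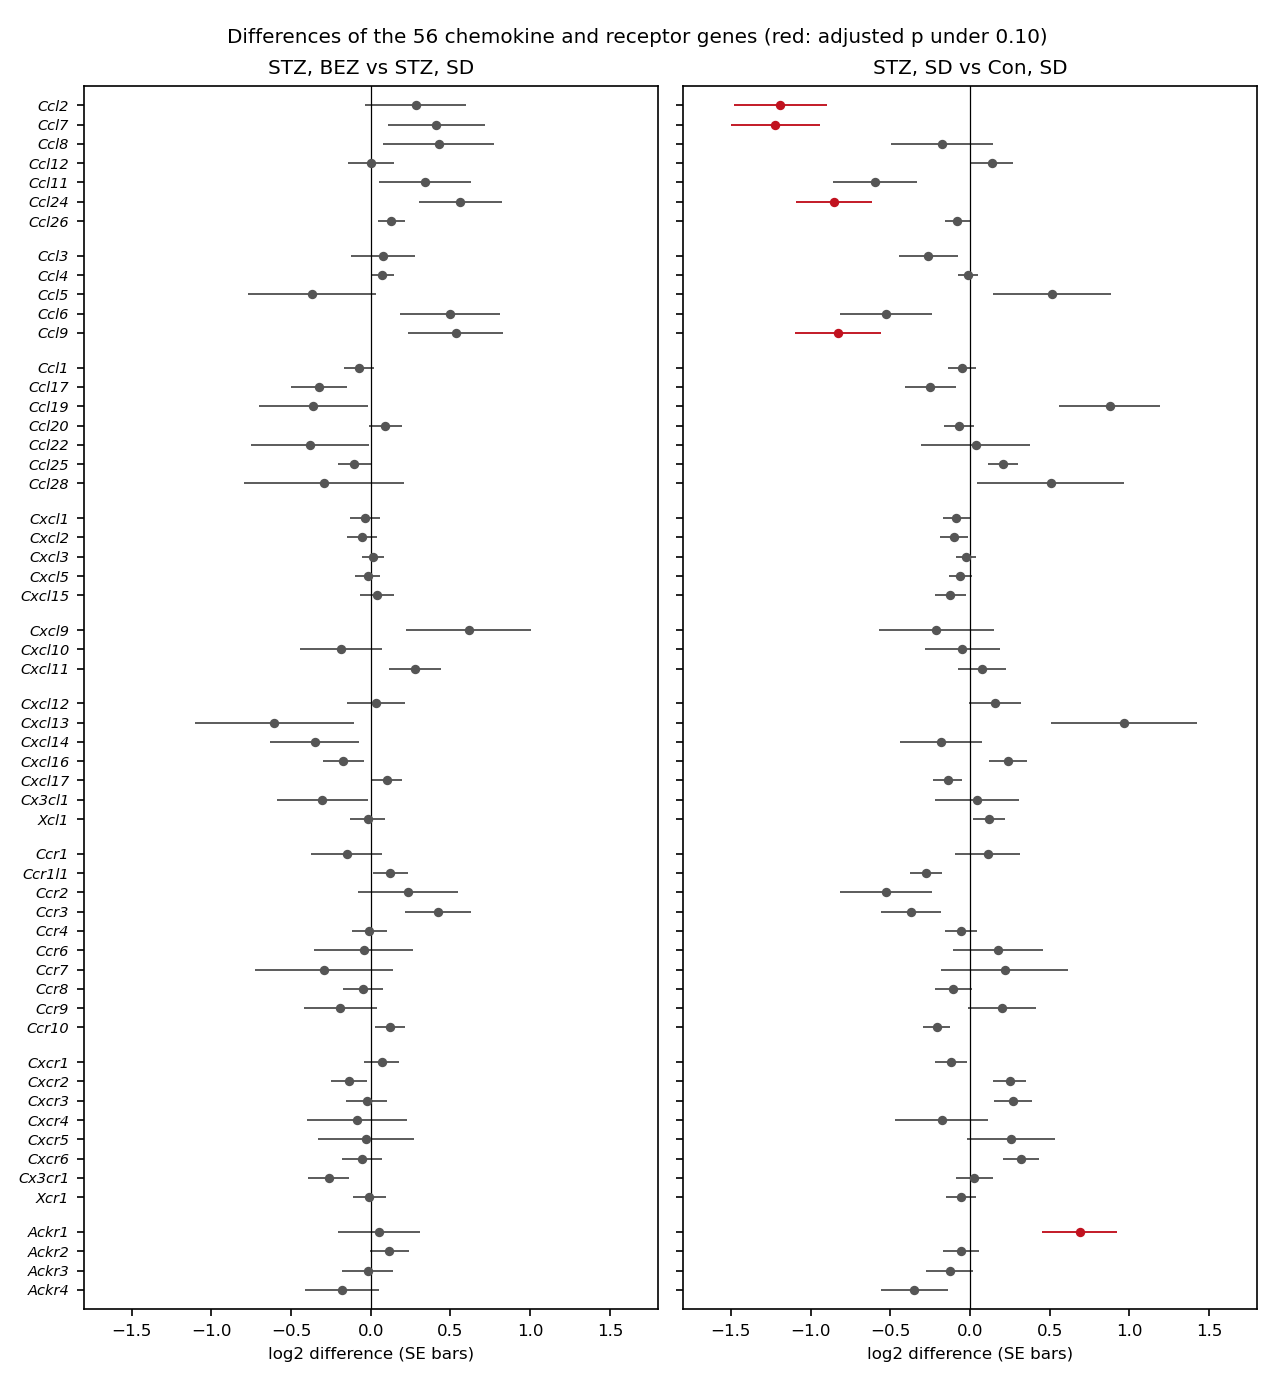
Log2 difference between groups (horizontal axis, bars of 1 SE) for the 56 members (vertical axis, in blocks by role), STZ, BEZ minus STZ, SD on the left and STZ, SD minus Con, SD on the right, with members under an adjusted p of 0.10 in red. The right panel has 5 red points, Ccl2, Ccl7, Ccl24 and Ccl9 below 0 and Ackr1 above it, and the left panel has none.

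Genes that act beneath the receptors were examined in a list of 35 signalling genes, of which 30 were measured. In STZ, SD compared with Con, SD, 2 of the 30 were lower and 0 higher, where 4.52% of all genes were called lower: Gnai2, the inhibitory G protein subunit through which chemokine receptors signal, by -0.32 (SE 0.10, adjusted p = 0.0782), and Cdc42, a small GTPase of cell polarity, by -0.29 (SE 0.08, adjusted p = 0.0506). The median over the 30 was -0.11. Of 12 measured attractants and receptors outside the chemokine names, 2 were lower: Cmklr1, the chemerin receptor of macrophages, dendritic cells and adipocytes, by -1.14 (SE 0.32, adjusted p = 0.0454), and Rarres2, which encodes chemerin itself, by -0.60 (SE 0.18, adjusted p = 0.0600). Of 7 measured monocyte and dendritic cell genes, only Cd209a was called, lower by -0.99 (SE 0.23, adjusted p = 0.0206). The median over the 7 was -0.06. Flt3, Zbtb46 and Clec9a had positive differences (0.15, 0.05 and 0.32) and Itgax, Plac8 and Batf3 negative ones (-0.39, -0.41 and -0.06). Of 12 fibroblast and progenitor genes, 4 were lower (Col1a1, Col3a1, Dpt and Fn1), with Dpt at -0.95 (SE 0.21, adjusted p = 0.0171). The median over the 12 was -0.08, and Pdgfra, Dcn, Lum and Dpp4 of the same list had positive differences that did not pass (0.26, 0.26, 0.34 and 0.43). None of 10 eosinophil and mast cell genes and none of 8 neutrophil genes was called. The part of these cells in the chemokine values was not tested. For the genes of these lists, values without STZ, SD replicate 6 are not given. On that array the mean of the 12 further attractants and receptors was 7.75, against 7.80 to 8.61 on the other 17. The mean of the 12 fibroblast and progenitor genes was 9.58, against 9.77 to 10.63. The mean of the 30 signalling genes was 8.83, within the range of the other 17 (8.23 to 8.93).

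The question of whether bezafibrate changed the chemokines of diabetic fat was addressed by comparing STZ, BEZ with STZ, SD. No member was called by limma, against 0.707% of all genes, and 0 by SAM, against 645 of 19938 genes. None had groups that did not overlap, against 1.49% of all genes. Only Ccl24, 1 of 56 (1.79%), had an unadjusted p under 0.05, against 10.2% of all genes. The median difference was -0.02 over the members, with 24 above and 32 below 0, and 0.01 over all genes. That direction was not stable. Without STZ, SD replicate 6 the median over the members was 0.06, with 36 above and 20 below 0, and again no member was called. With all arrays kept, 31 were above and 25 below 0 with array medians set to 0, and 33 and 23 with the replicate block. Of the 4 members lower in STZ, SD, each had a positive difference with bezafibrate that did not pass. These comparisons share the STZ, SD arrays, so that an opposite sign is no independent result.

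Ccl24 had 7.26, 7.32, 8.09, 7.43 and 7.42 in STZ, BEZ (replicates 1 to 5), against 6.47 to 7.91 in STZ, SD (median 6.80). All 5 STZ, BEZ mice lay above the STZ, SD mean, and replicate 3 above every STZ, SD mouse. The difference was 0.56 (SE 0.26, 95% interval 0.01 to 1.11, adjusted p = 0.479). Ccl2 had 8.32, 7.85, 8.01, 7.59 and 7.60 in STZ, BEZ, against a median of 7.50 in STZ, SD, a difference of 0.28 (95% interval -0.38 to 0.95, adjusted p = 0.834). Ccl7 had 8.24, 7.98, 8.02, 7.69 and 7.46, against a median of 7.18 in STZ, SD, a difference of 0.41 (95% interval -0.23 to 1.05, adjusted p = 0.713). For both genes the STZ, BEZ values lay within the range of STZ, SD, which its replicate 5 extends upwards. Ccl9 had 8.97, 9.09, 9.98, 9.24 and 9.06, against a median of 8.92 in STZ, SD, a difference of 0.53 (95% interval -0.09 to 1.16, adjusted p = 0.577). Ackr1 had 7.62, 8.27, 8.04, 8.25 and 8.43, against a median of 8.11 in STZ, SD, and differed by 0.05 (95% interval -0.49 to 0.59, adjusted p = 0.977). Without STZ, SD replicate 6, the differences of Ccl24, Ccl2, Ccl7, Ccl9 and Ackr1 were 0.52, 0.29, 0.33, 0.37 and -0.01.

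The largest positive difference was that of Cxcl9, a ligand of Cxcr3 on activated T cells, which had 9.59, 9.21, 9.74, 9.49 and 9.06 in STZ, BEZ, against 7.49 to 10.05 in STZ, SD, a difference of 0.62 (SE 0.39, adjusted p = 0.655). The STZ, BEZ mice were close together and lay inside the wide range of STZ, SD. Ccl6 had 10.11, 10.24, 10.98, 10.50 and 10.43 in STZ, BEZ and differed by 0.50 (SE 0.31, adjusted p = 0.647), or by 0.31 without STZ, SD replicate 6. Ccl8, with 8.36, 8.08, 7.76, 8.53 and 8.26, differed by 0.43 (SE 0.35, adjusted p = 0.755), or by 0.09 without STZ, SD replicate 6. Ccr3 had 4 of 5 STZ, BEZ mice above every STZ, SD mouse, at a difference of 0.42 (SE 0.21, adjusted p = 0.506).

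The largest negative difference was that of Cxcl13, which had 8.87, 8.59, 8.54, 10.57 and 8.63 in STZ, BEZ and differed by -0.61 (SE 0.50, adjusted p = 0.756), or by -0.42 without STZ, SD replicate 6. A single treated mouse, replicate 4, had a Cxcl13 as high as those of STZ, SD replicates 2, 4 and 6, and it also had the highest B cell mean of its group (7.09). Ccl19, with 8.95, 9.34, 8.44, 9.37 and 9.43, differed by -0.36 (SE 0.34, adjusted p = 0.794), or by -0.19 without that STZ, SD mouse. Ccl22, with 5.99, 5.78, 6.11, 5.46 and 5.97, and Ccl5, with 8.76, 8.57, 8.85, 8.57 and 8.71, differed by -0.38 and -0.37 (adjusted p = 0.802 and 0.830), and by 0.04 and 0.07 without STZ, SD replicate 6. Ccr7, with 7.77, 7.07, 7.93, 8.13 and 7.53, differed by -0.29 with and 0.21 without that mouse. Cxcl14, an adipocyte and fibroblast chemokine, had 7.82, 7.53, 7.68, 7.44 and 7.25, against 7.32 to 8.66 in STZ, SD (median 7.70), a difference of -0.35 (SE 0.28, adjusted p = 0.740). Ccl28 had 8.57, 7.77, 7.81, 6.56 and 6.15 in STZ, BEZ, and differed by -0.29 (SE 0.50, adjusted p = 0.904), or by -0.57 without STZ, SD replicate 6 (adjusted p = 0.719). None of the 30 signalling genes and none of the 12 further attractants was called.

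STZ, BEZ was also compared with Con, SD, which shows what differed from nondiabetic fat after treatment. A single member was called, Ccl17, a ligand of Ccr4 made by dendritic cells, 1.49-fold lower in STZ, BEZ. This is 1 of 56 (1.79%), against 5.95% of all genes called and 1.38% of all genes called lower. It was also the only member whose groups did not overlap, against 6.8% of all genes in either direction and 1.64% lower in STZ, BEZ. At an unadjusted p under 0.05 there were 7 members (12.5%), 3 higher and 4 lower, against 18.3% of all genes.

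Ccl17 had 7.45, 7.19, 7.38, 7.19 and 7.49 in STZ, BEZ, against 7.62 to 8.27 in Con, SD (median 8.01). All 5 treated mice lay below all 7 controls, and the STZ, SD mice, at 6.99 to 8.21 (median 7.67), overlapped with both. The difference was -0.57 (SE 0.17, adjusted p = 0.0726, limma), against -0.25 for STZ, SD compared with Con, SD (adjusted p = 0.425) and -0.32 for STZ, BEZ compared with STZ, SD (adjusted p = 0.561). The call was lost when any of 8 arrays was left out, each STZ, BEZ mouse among them, with the highest adjusted p of 0.194 without STZ, BEZ replicate 2. In the same comparison the epididymis genes Adam7 and Crisp4 were called lower and 5 of 18 pancreas genes higher, and the part of these tissues in the Ccl17 values was not tested.

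Ccl2 and Ccl7 still differed from Con, SD by -0.91 and -0.81 in STZ, BEZ (SE 0.31 and 0.29), of which neither passed (adjusted p = 0.120 and 0.147). Ccl2 was called lower with dim genes left out, with array weights, in a fit on those groups alone and by SAM. It was also called without Con, SD replicate 1 or STZ, SD replicate 5. Ccl7 was called lower with dim genes left out, with array weights and by SAM. All 5 treated mice lay below the control mean for both genes. Ackr1 differed by 0.74 (SE 0.25, adjusted p = 0.120), with 4 of 5 treated mice above every control. It was called higher when STZ, SD replicate 6 was left out (adjusted p = 0.0948), as it was without Con, SD replicate 4 or STZ, SD replicates 2 or 3, with array weights, with dim genes left out, in a fit on those groups alone and by SAM. Ccl24 and Ccl9 differed by -0.29 and -0.30 (adjusted p = 0.582 and 0.634). Ccl19 differed by 0.52 (adjusted p = 0.436), Cxcl9 by 0.40 (adjusted p = 0.624) and Cxcl13 by 0.36 (adjusted p = 0.750). Cxcl11, with 6.09, 6.06, 6.26, 6.40 and 6.69 in STZ, BEZ, 5.58 to 6.50 in STZ, SD (median 6.06) and 5.60 to 6.28 in Con, SD (median 6.05), differed by 0.35 from Con, SD (SE 0.16, adjusted p = 0.243).

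Cxcl14 had 7.51 to 8.91 in Con, SD (median 8.09), so that STZ, BEZ differed by -0.54 (SE 0.27, adjusted p = 0.305), with all 5 treated mice below the control mean. Ackr4, which scavenges Ccl19 and Ccl21, had 7.34, 7.47, 7.30, 7.62 and 7.64 in STZ, BEZ, 7.27 to 8.42 in STZ, SD (median 7.59) and 7.42 to 8.91 in Con, SD (median 7.79). It differed by -0.53 in STZ, BEZ compared with Con, SD (SE 0.22, adjusted p = 0.214). Of the 30 signalling genes, Tiam1, an activator of the GTPase Rac, was lower in STZ, BEZ, by -0.43 (SE 0.13, adjusted p = 0.0868), and none was higher.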

How the data were processed

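Visceral fat of 18 mice was measured on 1 array each. The authors background-corrected, quantile-normalised and summarised the arrays per probe set with RMA (Affymetrix Expression Console 1.2, per the labels), and deposited log2 values for 35556 probe sets, which were used as given. Over the genes analysed, array medians lay between 7.13 and 7.27, and the highest correlation between 2 arrays was 0.992. Of the probe sets, 21789 carried 1 gene symbol of the platform annotation, 1621 several and 12146 none here. For each of 19938 genes the probe set brightest on average over the 18 arrays stood for the gene. The number of arrays limits the precision.

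A single limma fit (lmFit and eBayes, limma 3.58.1, R 4.3.3, 15 residual and 2.44 prior degrees of freedom) covered the 3 groups. P-values were adjusted by Benjamini-Hochberg over all genes within a comparison, and a gene was called at an adjusted p under 0.10. Tables and figures were made with Python 3.11.15, pandas 2.3.3 and matplotlib 3.10.9. On simulated data with all 19938 genes the fit recovered 87% and 82% of genes changed by 1 on the log2 scale in STZ, SD compared with Con, SD and in STZ, BEZ compared with STZ, SD. The changed genes were drawn at random from all genes, whose median SD within groups was 0.21, against 0.30 for the members. Those shares therefore do not give the recovery for the members. The labels call the samples biological replicates. Their numbers were not taken as pairs of mice. Over 16 same-numbered pairs of arrays, the deviations correlated at -0.36 to 0.70, and 2 pairs lay above 0.1. Their mean was 0.001, against 0.004 for pairs with other numbers. The highest was that of Con, SD and STZ, SD replicate 3, both with high epididymis genes. Such correlations cannot exclude a pairing. Alternatives were SAM (100 permutations), another threshold, filter, scaling, choice of probe set, fit and weights, a replicate block, and leaving out arrays. The members and lists were chosen with earlier results of these data known. Values are given for members called in a comparison, for the 5 largest differences in each direction per comparison and for the 5 widest ranges within a group, and other members are given more briefly. All 56 members matched the RefSeq gene table.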

Additional observations from a re-analysis of the deposited data

Results flagged for a closer look

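A total of 19 of 168 gene and group combinations held an array whose gap to its nearest neighbour exceeded Dixon's critical value, where 8.4 would be reached by chance, and 16 of them were high. On STZ, SD replicate 6 these were Ccl5 (11.27), Ccl22 (8.32), Xcl1 (6.37), Ccr6 (7.39), Ccr7 (10.47), Ccr9 (7.06), Ccr10 (6.81) and Cxcr5 (6.84). In STZ, BEZ, replicate 4 was high for Cxcl13 (10.57), Ccl4 (5.83) and Ccr8 (4.94), replicate 3 for Ccl24 (8.09) and Ccl9 (9.98) and replicate 5 for Cxcr6 (6.8), while replicate 1 was low for Ccl11 (9.72). In Con, SD, replicate 7 was high for Cxcl5 (5.17) and Xcr1 (6.43), and replicate 5 low for Ccl4 (5.37) and Cxcl13 (7.49). STZ, BEZ replicate 3 also had the highest mean of the macrophage genes (9.47).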

How the results depend on the processing

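For STZ, SD compared with Con, SD, 5 of 56 members and 2063 of all 19938 genes were called. At an adjusted p under 0.05 there were 3 members (1089 genes), in a fit on those groups alone 3 (1022) and by SAM 9 (2533). When 1 array was left out there were 3 to 9 members (1128 to 2897 genes). The 9 calls without STZ, SD replicate 3 added Ccl19, Cxcl13, Cxcr2, Cxcr3 and Cxcr6 and lost Ccl9. With the replicate block, which pairs mice by number only, 2 members were called, Ccl19 and Ccl7, and 680 of all genes. For STZ, BEZ compared with STZ, SD, all 31 alternatives gave 0 member calls. Few genes were called there at all: 141 in the main fit, and from 2 with the replicate block to 705 without STZ, SD replicate 1. For STZ, BEZ compared with Con, SD, the 1 member call (1187 of all genes) became 0 at an adjusted p under 0.05 (602 genes). With dim genes left out it became 4 of 27 members, where 1531 of 10597 genes were called. Array weights gave 6 members (3804 genes), a fit on those groups alone 3 (2820) and SAM 10 (5011). Without both arrays with pancreas genes above 10, an alternative added after seeing the data, there were 2 (1693 genes). Leaving out 1 array gave 0 to 2 (418 to 2096 genes). The replicate block gave 1 (599 genes), Cxcl14 in place of Ccl17. The cause of these changes was not tested. Ccl7 kept its call in 29 of 29 alternatives, Ccl2 in 28, Ccl24 in 27, Ccl17 in 20, Ccl9 in 14 and Ackr1 in 12, and none reversed. Of the 29, 18 leave out 1 array each and share most arrays, so that they are not independent. The adjusted p under 0.05 is not among the 29, and Ccl9, Ackr1 and Ccl17 were not called there. In STZ, BEZ compared with STZ, SD, 24 members had a positive and 32 a negative difference as deposited, against 36 and 20 without STZ, SD replicate 6, 37 and 19 without both arrays with pancreas genes above 10, 33 and 23 with the replicate block and 31 and 25 with array medians set to 0. With only 5 to 7 mice a group, small differences can be missed, above all in genes with a wide spread.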
